A study of Mus musculus with 9 samples.

Results

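Day 5 of differentiation was compared with day 0 in 2 knockout populations of C2C12, an established mouse myoblast line. The comparison holds 4 of the 9 RNA-seq libraries of a study on the circadian clock in myoblast differentiation, chosen by genotype, day and depth: Per1KO and Per2KO on day 0 and on day 5. In Per1KO cells the clock gene Per1, and in Per2KO cells its paralogue Per2, had been disrupted with CRISPR-Cas9. All 4 libraries thus come from cells labelled as knockouts of 1 of these clock repressors. The control cells with a non-targeting guide are not used here. Day 0 cells grew undifferentiated in 10% fetal bovine serum, and day 5 cells had been kept in 5% horse serum to differentiate. Each population and day has 1 library of polyadenylated RNA, and the labels do not say whether a population is a clone or a pool. The 2 populations stand in for replicates, the p-values speak of these populations only, and the study states n = 1. The sources used here do not say whether libraries of a day were prepared together, and such a batch and the day cannot be told apart.

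Withdrawal of growth serum makes myoblasts leave the cell cycle and fuse into multinucleated myotubes. The basic helix-loop-helix factors MYOD1 and myogenin, with MEF2 proteins, switch on contractile proteins, and the new muscle membrane gains acetylcholine receptors and the voltage-gated channels that couple excitation to contraction. Transcription factors, receptors and channels are often encoded by scarce transcripts, which take deep libraries to count. The comparison asks which transcripts, scarce ones included, changed over the whole 5 days.

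The 4 libraries held 41997763 to 47156412 counts. Levels are given as CPM, a gene's counts scaled to a library of 1000000 counts after TMM (trimmed mean of M values) scaling, and paired values are always Per1KO first and Per2KO second. Where a library had no count, counting error still allows up to 3 counts, or 0.0607 to 0.0744 CPM by library. Of 47729 genes, 22975 had no count in the 4 libraries and 15719 had at least 10 counts in at least 2 of them and were tested. The test was edgeR's quasi-likelihood test with population as the block and Benjamini-Hochberg adjustment over all 15719, and "called" means an adjusted p under 0.05. The counts of calls in the text come from that test.

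The labels name whole muscle as tissue, but the markers were those of a myogenic culture. The 7 myotube markers summed to 54.5 and 26.1 CPM on day 0 and to 12306 and 9623 CPM on day 5, and all 7 were called higher. Myog, the gene of myogenin, rose from 5.46 and 2.99 CPM to 357 and 275, a log2 fold change of 6.26 ± 0.17 (standard error here and below; adjusted p = 4.25e-06). The 6 myoblast markers summed to 3410 and 2995 CPM on day 0 and 8582 and 8304 on day 5. Many defining markers of other cell types were absent: Ptprc and Adgre1 of leukocytes, Adipoq and Cidec of fat cells, Epcam and Krt5 of epithelium, Ibsp and Acan of bone and cartilage and Emcn of endothelium had no count in any library. Endothelial markers summed to 0.992 and 1.21 CPM on day 0 and 2.13 and 2.60 on day 5. Of those 6 markers, 5 stayed under 1 CPM throughout, and 1 of the 2 tested was called higher. Fat cell markers summed to 64.6 and 91.1 CPM on day 0 and 136 and 169 on day 5, with 5 of 7 under 1 CPM throughout. Bone and cartilage markers summed to 151 and 144 CPM on day 0 and 81.9 and 91.7 on day 5. Of those 8 markers, 6 stayed under 1 CPM throughout, and 2 of the 3 tested were called lower. Smooth muscle markers summed to 867 and 737 CPM on day 0 and 4595 and 4161 on day 5, most of it Acta2, which differentiating skeletal muscle cells also express, while Myh11 and Rgs5 stayed under 0.1 CPM. The mitochondrial share of counts was 1.46% and 1.47% on day 0 and 2.35% and 2.28% on day 5, and its part in the results was not tested. Bulk libraries cannot tell fewer cells of a type from less RNA per cell.

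Transcripts of both knocked-out genes were present. Per1 stood at 21.3 and 16.9 CPM on day 0 and 29.4 and 33.5 on day 5, and Per2 at 6.72 and 3.60 CPM on day 0 and 10.7 and 8.53 on day 5. Counts over a whole gene do not show an edited exon, so these levels check neither knockout label. Both genes were called higher on day 5 (log2 fold changes 0.73 ± 0.16 and 0.95 ± 0.20, adjusted p = 0.00978 and 0.00852). The call for Per1 was lost without the Per2KO day 5 library (adjusted p = 0.0553), and that for Per2 without the Per1KO or the Per2KO day 5 library (adjusted p = 0.206 and 0.0827).

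Of the tested genes, 53.3% differed between the days: 4222 genes (26.9% of those tested) were called higher and 4159 (26.5%) lower on day 5. A change of at least 2-fold in both populations was reached by 1980 of the higher genes (12.6% of those tested) and 1548 of the lower (9.85%). Among the 12815 protein-coding genes tested, 29.3% were called higher and 27.7% lower. Without the Per1KO day 5 library 2385 genes were called higher and 2289 lower, and without the Per2KO day 5 library 2457 and 2359. Scaling to total counts in place of TMM moved the median of all genes by -0.13 on the log2 scale and gave 3530 genes called higher and 5134 lower, so small fold changes are to be read relative to that shift.

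The populations moved together. Across the 15719 genes the 2 populations' log2 differences had a Pearson r of 0.920 and a Spearman rho of 0.867. This is a description across genes, which are not independent and share normalization. No called gene had opposite signs in Per1KO and Per2KO, but a test for a shared day effect nearly fixes that. Of the tested genes, 37 moved in opposite directions by at least 2-fold in each population. The first principal component, which separated the days, carried 92.3% of the variance, and the second 5.19%.

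**Figure D1:**
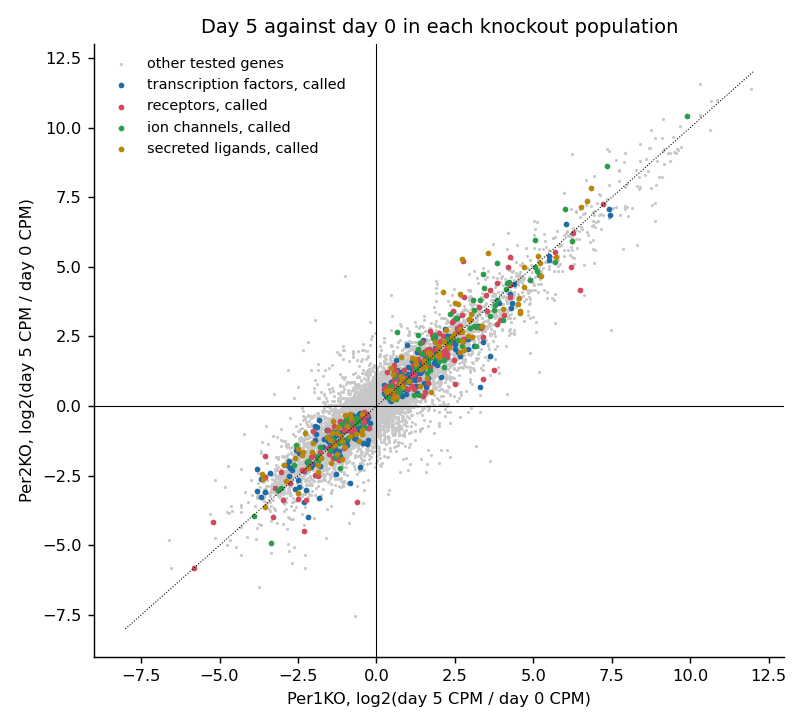
Log2 ratio of day 5 to day 0 CPM in Per1KO (x axis) and Per2KO (y axis) for the 15719 tested genes, with counts under 3 raised to 3. Coloured points are called members of the 4 gene classes, and the dotted line marks equal change. All called genes lie where both differences have the same sign, which the test nearly fixes.

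Scarce transcripts held many of the large changes. Of 2788 tested genes with a mean under 1 CPM, 619 were called higher and 366 lower, and nearly all of these, 580 and 329, changed at least 2-fold in both populations. At a mean of 10 to 100 CPM, 1813 of 7113 genes were called higher and 2277 lower, of which 529 and 651 changed at least 2-fold. A filter at 1 CPM would have left out 2557 of the tested genes, 816 of them called. Of all tested genes, 983 reached 10 counts on 1 day only, and 853 of these had a mean under 1 CPM. Such genes pass the filter through the day on which they are high, so their calls are no support for a share. Among the genes under 1 CPM that were counted on both days, 222 were called higher and 150 lower. Without the Per1KO day 5 library, 117 genes under 1 CPM were called higher and 191 lower, and DESeq2 called 300 and 89.

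**Figure D2:**
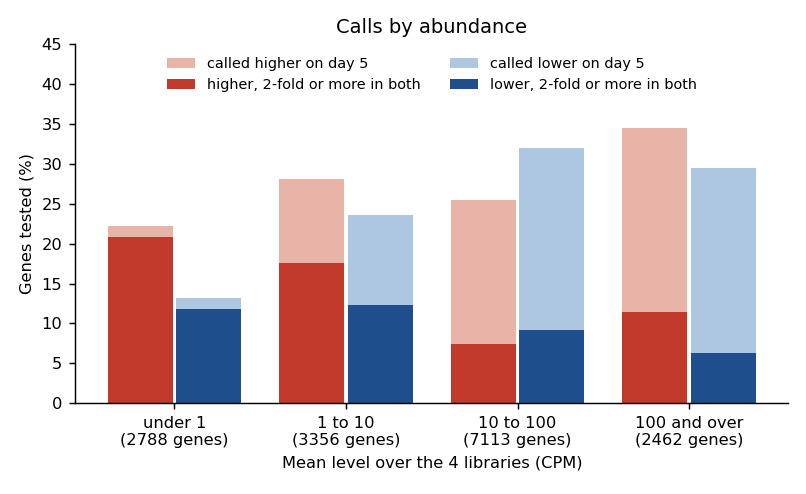
Share of tested genes called higher (red) or lower (blue) on day 5, by mean CPM over the 4 libraries (x axis, number tested in brackets); dark bars are the part that changed at least 2-fold in both populations. The dark part fills nearly the whole bar only under 1 CPM, where small changes are not detectable at this depth.

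The contractile apparatus and the cell cycle framed the change. Of 53 tested sarcomere genes, whose proteins form the thick, thin, titin and Z-disc filaments, 51 were called higher and 0 lower, with a median log2 fold change of 8.08. Of these 53, 15 passed the filter through 1 day only, and of the other 38, 36 were called higher. Of 45 genes of DNA replication and mitosis, 43 were called lower and 1 higher, with a median of -2.71. The 1 cell cycle gene called higher was Cdk2, a cyclin-dependent kinase of S phase entry, at 63.2 and 43.3 CPM on day 0 and 90.3 and 82.7 on day 5. Its call was lost without the Per1KO or the Per2KO day 5 library (adjusted p = 0.0905 and 0.0508). Cdc25c, the phosphatase that triggers mitosis, fell from 51.3 and 44.5 CPM to 4.20 and 4.41 (log2 fold change -3.47 ± 0.15, adjusted p = 1.71e-05).

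Ranked by the smaller of the 2 populations' changes among genes that share under 10% of their 31-base words with other genes, the 5 largest rises were all genes of muscle contraction or its energy supply. The embryonic myosin Myh3 shares 11.2% and was not ranked, although its change exceeded that of Ckm. Myl2, the regulatory light chain of slow and cardiac myosin, had no count in either day 0 library and stood at 243 and 162 CPM on day 5, which is at least 2677-fold higher against 3 counts per library. Myoglobin, the oxygen store of muscle encoded by Mb, went from 0.165 and 0.101 CPM to 308 and 205. The atrial and embryonic light chain Myl4 rose from 1.16 and 0.748 CPM to 1876 and 1476, and muscle creatine kinase, Ckm, from 0.351 and 0.243 CPM to 442 and 337. Cacna1s, the pore of the calcium channel that senses voltage in skeletal muscle, rose from 0.310 and 0.162 CPM to 297 and 219. Adjusted p-values for the 5 lay between 1.76e-06 and 4.25e-06, and no day 0 value came near a day 5 value.

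The 5 largest falls were cell-surface and secretory genes. Ngfr, the p75 neurotrophin receptor (chromosome 11, 95568818 to 95587735, GRCm38), fell from 12.5 and 18.3 CPM to 0.220 and 0.322, a log2 fold change of -5.81 ± 0.24. P-selectin, the adhesion molecule of platelets and endothelium encoded by Selp, had 330 and 206 counts on day 0 and 3 and 1 on day 5, a day 5 to day 0 ratio of 0.00898 (exact 95% counting interval 0.00244 to 0.0231). Itgb7, an integrin beta subunit, fell from 55.5 and 86.2 CPM to 2.05 and 2.73. Ptprn, a phosphatase-like protein of secretory granules, fell from 23.5 and 25.2 CPM to 0.660 and 0.942, and Hhip, a surface antagonist of hedgehog ligands, from 50.5 and 48.2 CPM to 1.98 and 1.71. All 5 had adjusted p-values of at most 3.98e-05. Their days did not overlap, which ranking by the smaller of the 2 changes nearly fixes, here and in later genes named by rank. Markers of Schwann and neural cells summed to 197 and 101 CPM on day 0 and 54.9 and 62.3 on day 5, with 5 of 7 under 1 CPM in all 4 libraries, and their part in the fall of Ngfr was not tested.

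The transcription factor lists, 13 families taken by symbol, held 749 protein-coding genes, of which 455 were tested and 25 of those passed through 1 day only. On day 5, 126 were called higher (27.7%) and 118 lower (25.9%), shares near those of all protein-coding genes (29.3% and 27.7%), and the median log2 fold change was -0.01, as over all genes tested (-0.01). With total-count scaling the split was 107 higher and 151 lower. The near-even split thus depended on the scaling.

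Shares in the families stand beside 29.3% of protein-coding genes called higher and 27.7% lower. NK-like homeobox factors had 9 of 16 tested members called lower (56.25%) and 1 higher (6.25%), of which 8 and 0 among the 14 counted on both days. Without the Per1KO or the Per2KO day 5 library 6 and 7 were called lower and 0 higher. T-box factors had 3 of 7 called higher and 0 lower, and without the Per1KO day 5 library 2 and 0. ETS factors, many of which act downstream of growth factor signalling, had 7 of 15 called lower and 3 higher, and 5 and 1 without either day 5 library. In other families the number of calls changed with the library left out, as it did over all genes tested. Sox factors had 6 of 9 called lower and 1 higher, but 1 and 1 without the Per1KO day 5 library, 3 and 1 without the Per2KO day 5 library, and 2 and 1 with DESeq2. LIM and TALE homeobox factors had 7 of 18 lower and 2 higher, but 3 and 1 without the Per1KO and 2 and 2 without the Per2KO day 5 library. PRD, sine oculis, POU and CUT homeobox factors had 8 of 29 higher and 2 lower, but 8 and 7 without the Per2KO day 0 library, and nuclear receptors had 12 of 32 higher and 6 lower, but 6 and 3 without the Per2KO day 5 library. Basic helix-loop-helix factors had 19 of 52 higher (36.5%) and 14 lower (26.9%), and bZIP factors 16 of 44 (36.4%) and 10 (22.7%). The signal-linked factors had 26 of 82 higher (31.7%) and 21 lower (25.6%), near the shares of protein-coding genes. Total-count scaling gave 18 and 19, 12 and 12, and 22 and 26 in these 3 families. As shares called higher and lower, T-box factors had 42.9% and 0%, ETS factors 20% and 46.7%, and Sox factors 11.1% and 66.7%. LIM and TALE factors had 11.1% and 38.9%, the PRD group 27.6% and 6.90%, and nuclear receptors 37.5% and 18.75%. No test compared the families with each other.

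The scarce factors with the largest rises had been close to silent on day 0. Trp63 encodes p63, a p53 relative best known from stratified epithelium (chromosome 16, 25683763 to 25892102). It had 1 and 2 counts on day 0 and 434 and 327 on day 5, that is 0.0207 and 0.0404 CPM against 10.6 and 8.10, a ratio of 305 (exact 95% counting interval 104 to 1484; adjusted p = 2.07e-05). Beside it, the epithelial markers Epcam and Krt5 had no count, Krt8 stayed at or under 0.145 CPM, and only Cdh1 moved, from 1.84 and 2.18 CPM to 9.92 and 9.12. Isx, an intestinal homeobox repressor, went from 0.103 and 0.0809 CPM to 4.69 and 3.37, a ratio of 43.9 (22.8 to 96.8). Casz1, a zinc finger factor of heart and muscle development, rose from 0.310 and 0.243 CPM to 13.97 and 9.15 (log2 fold change 5.36 ± 0.25). In each of these 3 genes both day 5 libraries stood far above both day 0 libraries, and Per1KO was the higher of the 2 on day 5.

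Below 1 CPM on average, 3 further factors led the rises. Nr3c2, the mineralocorticoid receptor, had 1 and 3 counts on day 0 and 48 and 40 on day 5, and Grhl3, a grainyhead factor of surface ectoderm, had 6 and 2 against 76 and 32. Dmrt1, known from testis development, had 0 and 2 counts on day 0 and 50 and 28 on day 5. Their ratios were 26.5 (9.98 to 99.3), 16.2 (7.96 to 38.6) and 46.9 (12.6 to 394), with adjusted p-values of 0.000859, 0.000598 and 0.00177. The intervals cover counting error and no other error, and copies made by PCR were not marked.

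Better counted factors also moved strongly in both directions. Mafa, a bZIP factor best known from insulin-producing cells, rose from 0.806 and 0.930 CPM to 16.0 and 12.2 (log2 fold change 4.002 ± 0.23). Sox8, a SoxE factor, rose from 1.94 and 1.31 CPM to 11.6 and 11.8, the 1 rise among the Sox factors. Tbx15, a T-box factor of limb and muscle fibre development, rose from 35.2 and 29.7 CPM to 192 and 154. Twist2, an inhibitor of myogenic helix-loop-helix factors, fell from 14.8 and 15.4 CPM to 2.15 and 2.73 (log2 fold change -2.64 ± 0.18), although 46.5% of its exon bases lie opposite exons of Gm29100, which had at most 1.05 CPM. Myod1 rose from 89.02 and 60.3 CPM to 140 and 148. Myf5, the factor of proliferating myoblasts, was at 54.1 and 134 CPM on day 0 and 46.7 and 56.1 on day 5 and was not called (adjusted p = 0.0515). It was named after its values were seen, and it was called lower with total-count scaling, with a 1 CPM filter, with DESeq2 and without the Per1KO day 0 library (adjusted p = 0.0329, 0.0460, 0.00471 and 1.26e-05).

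Scarce factors also fell. Sp8, a zinc finger factor of limb and brain outgrowth, fell from 8.83 and 7.85 CPM to 0.684 and 0.818 (log2 fold change -3.47 ± 0.24, adjusted p = 8.42e-05). Dmbx1, a PRD-class homeobox factor of midbrain development, fell from 11.9 and 6.57 CPM to 0.928 and 1.07. Foxn1, the forkhead factor of thymic epithelium and hair, had 50 and 41 counts on day 0 and 2 and 4 on day 5, and the LIM homeobox factor Lhx9 had 43 and 48 against 6 and 5. Among more abundant factors, Etv4, an ETS factor induced by FGF signalling, fell from 101 and 71.5 CPM to 15.02 and 15.3, and E2f7, a repressor of the cell cycle, from 50.01 and 30.7 to 7.30 and 7.73. Fosl1, a FOS-family partner of AP-1, fell from 107 and 57.7 CPM to 10.1 and 10.9, while Ccdc85b, whose exons lie opposite 57.2% of its exon bases, was at 25.1 and 22.4 CPM and then 20.9 and 19.2. On day 0 Per1KO was above Per2KO in all of these falling genes but Lhx9.

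Further homeobox factors moved in both directions. Hoxa13, a factor of the distal limb, rose from 0.393 and 0.384 CPM to 2.76 and 2.03 (log2 fold change 2.60 ± 0.30), and Hoxa9 fell from 30.1 and 27.97 CPM to 14.7 and 15.2 (-0.96 ± 0.13). Dlx1, a distal-less factor of forebrain interneurons, fell from 3.70 and 2.16 CPM to 0.660 and 0.347, and the TALE factor Pknox2 rose from 8.46 and 8.55 CPM to 23.1 and 22.5. Dlx1 was the one of these genes with the widest gap between the populations.

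Other families gave the following largest members. Nr4a2, an orphan nuclear receptor induced by many stimuli, fell from 11.4 and 8.90 CPM to 2.32 and 1.76, and Elk1, an ETS factor that partners with serum response factor, rose from 38.7 and 41.9 to 68.2 and 71.01. Bcl6b, a relative of the repressor BCL6, had 50 and 35 counts on day 0 and 3 and 6 on day 5. The largest rise among forkhead factors, Foxq1 (5 and 5 counts, then 32 and 17), lies with 66.1% of its exon bases opposite A530084C06Rik. Emx2 of the NK-like factors had 7 and 6 counts, then 27 and 33, and Sox6, a SoxD factor of fast muscle fibres, had 19 and 26, then 4 and 5. These last 3 calls were lost with DESeq2 (adjusted p = 0.0952, 0.0621 and 0.242), and that of Sox6 also without the Per1KO day 5 library (adjusted p = 0.0714).

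**Figure D3:**
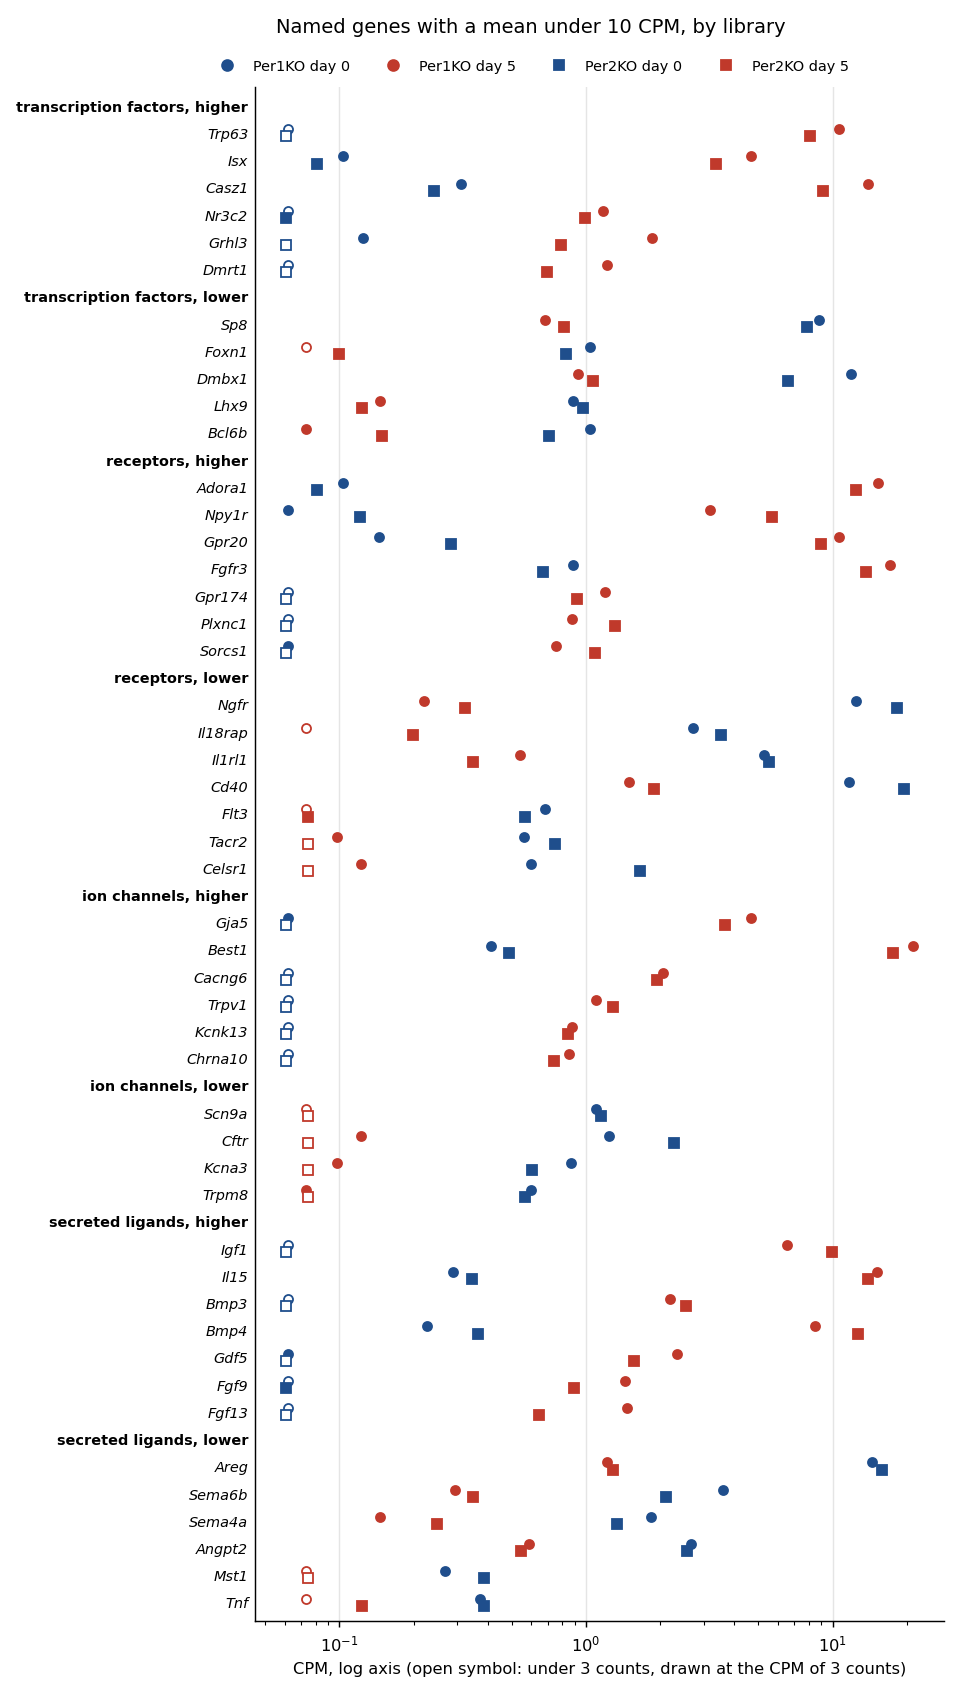
CPM in each library (log x axis; circles Per1KO, squares Per2KO, blue day 0, red day 5) of the transcription factors, receptors, ion channels and secreted ligands with the largest called changes under a mean of 10 CPM and under 1 CPM. Open symbols hold under 3 counts and are drawn at the CPM of 3 counts. In no gene shown do the days overlap, which the ranking that chose them nearly fixes.

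Of 544 receptors listed, 258 were tested, 30 of them through 1 day only, and 112 (43.4%) were called higher and 63 (24.4%) lower, beside 29.3% and 27.7% of protein-coding genes. Among the 228 counted on both days 93 were called higher and 57 lower, and the median log2 fold change over the tested receptors was 0.37 against -0.01 over all genes. Without the Per2KO day 5 library 74 were called higher, and without the Per1KO day 5 library 40 were called lower. No test of the lists themselves was made.

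Among the G protein-coupled receptors of transmitters, the counts of the adenosine receptors Adora1 and Adora2a changed in opposite directions. Adora1, the inhibitory adenosine receptor (chromosome 1, 134199223 to 134235431), went from 0.103 and 0.0809 CPM to 15.3 and 12.4, a ratio of 151 (exact 95% counting interval 79.1 to 330). A share of 20.1% of its exon bases lies opposite exons of Mybph, a myosin-binding protein gene that went from 4.13 and 2.18 CPM to 1742 and 1357. Reads of the 2 genes cannot be told apart there without strand, so both the level and the rise of Adora1 are uncertain. Adora2a, a stimulatory adenosine receptor, fell from 5.75 and 11.6 CPM to 1.22 and 1.12 (log2 fold change -2.81 ± 0.31). Of the 12 tested receptors of the amine, acetylcholine and adenosine family, 8 (66.7%), Adora1 among them, were called higher and 3 (25%) lower. The shares of protein-coding genes were 29.3% and 27.7%. However, 4 of the 12 passed the filter through 1 day only, and of the other 8, 5 were higher and 2 lower. Without the Per1KO or the Per2KO day 5 library 5 and 4 were called higher and 1 and 2 lower.

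Of the 25 tested peptide receptors 9 (36%) were called higher and 5 (20%) lower, but 7 passed the filter through 1 day only. Of the other 18, 5 were higher and 4 lower. Lipid and nucleotide receptors had 5 of 16 higher and 5 lower (31.25% each). Those shares are near the 29.3% and 27.7% of protein-coding genes. Orphan receptors had 10 of 25 higher (40%) and 4 lower (16%). Npy1r, a neuropeptide Y receptor, went from 0.0620 and 0.121 CPM to 3.18 and 5.68, a ratio of 48 (25.01 to 106). The orphan receptor Gpr20 went from 0.145 and 0.283 CPM to 10.6 and 9.02, a ratio of 45.7 (29.7 to 74.3). Gprc5c, a class C receptor inducible by retinoic acid, rose from 2.87 and 2.49 CPM to 222 and 182 (log2 fold change 6.23 ± 0.13, adjusted p = 2.03e-06) and was the largest rise of its family. Cnr1, the cannabinoid receptor of the nervous system, rose from 0.227 and 0.425 CPM to 2.05 and 3.02. Lpar2, a lysophosphatidic acid receptor, fell from 6.02 and 5.99 CPM to 0.513 and 1.02, and the zinc-sensing Gpr39 from 7.13 and 6.31 to 1.64 and 1.54. Gpr174 and Plxnc1, a lysophospholipid receptor and a semaphorin receptor, had no count on day 0 and 49 and 37, and 36 and 53, counts on day 5, at least 15.1-fold and 14.2-fold higher. DESeq2 did not call these 2 (adjusted p = 0.0902 and 0.0883).

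Receptor tyrosine kinases had 18 of 39 tested members called higher (46.2%) and 11 lower (28.2%), beside 29.3% and 27.7% of protein-coding genes. Both numbers of calls were smaller without the Per1KO day 5 library. Fgfr3, a fibroblast growth factor receptor, rose from 0.889 and 0.667 CPM to 17.1 and 13.7 (log2 fold change 4.31 ± 0.20, adjusted p = 2.12e-05). Its relative Fgfr4, named like Erbb3 and Tgfbr2 after its values were seen, rose from 0.724 and 0.364 CPM to 3.96 and 3.84. Erbb3, the neuregulin receptor of the nerve-muscle junction, rose from 25.8 and 25.2 CPM to 173 and 127. The cytokine receptor kinase Flt3 had 33 and 28 counts on day 0 and 1 and 3 on day 5. TGF-beta family receptors had 7 of 11 called higher and 0 lower. With total-count scaling they were 6 higher and 1 lower. Tgfbr2, the ligand-binding TGF-beta receptor, rose from 162 and 144 CPM to 509 and 530. The scarcest of the 7, Amhr2, the receptor of anti-Müllerian hormone, had 0 and 1 counts on day 0 and 12 and 11 on day 5, and DESeq2 did not call it (adjusted p = 0.0691).

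After Ngfr, the largest falls of receptors under 10 CPM included cytokine and TNF receptors. Il18rap, a subunit of the interleukin 18 receptor, had 131 and 174 counts on day 0 and 1 and 8 on day 5, a ratio of 0.0355 (0.0161 to 0.0683). Il1rl1, the interleukin 33 receptor, fell from 5.25 and 5.52 CPM to 0.537 and 0.347, and Cd40, a TNF-family receptor, from 11.7 and 19.5 to 1.49 and 1.88. The leukocyte markers summed to 16.0 and 14.3 CPM on day 0 and 7.06 and 7.76 on day 5, most of it Cd14, with 4 of 6 under 1 CPM in all 4 libraries and Ptprc and Adgre1 at 0. Tnfrsf19, a TNF-family receptor, moved the other way, from 0.0620 and 0.243 CPM to 5.57 and 4.31, a ratio of 32.3 (19.3 to 58.2). In all, 21 of 60 cytokine, TNF and Toll-like receptors were called higher (35%) and 19 lower (31.7%), and with total-count scaling 19 and 25. The shares of protein-coding genes were 29.3% and 27.7%. Among guidance and lipoprotein receptors, Plxnb3 of the semaphorin receptors went from 0.310 and 0.162 CPM to 5.86 and 6.59. Lrp8, a reelin receptor, fell from 77.1 and 40.0 CPM to 9.45 and 7.81.

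Adhesion, secretin-type and sorting receptors included further scarce members. Adgrd1, an adhesion receptor, rose from 0.579 and 0.930 CPM to 8.87 and 7.96 (log2 fold change 3.48 ± 0.28). Sorcs1, a sortilin-type sorting receptor, had 3 and 1 counts on day 0 and 31 and 44 on day 5. Tacr2, the neurokinin A receptor, had 27 and 37 counts on day 0 and 4 and 2 on day 5, and Gipr, the receptor of the incretin GIP, had 58 and 58, then 20 and 13. The call of Gipr was lost with DESeq2 (adjusted p = 0.124) and without the Per2KO day 5 library.

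Of 333 ion channels listed, 148 were tested, 25 of them through 1 day only, and 68 (45.9%) were called higher and 27 (18.2%) lower, beside 29.3% and 27.7% of protein-coding genes. The median log2 fold change over the tested channels was 0.40, against -0.01 over all genes. Among the 123 counted on both days, 51 (41.5%) were called higher and 21 (17.1%) lower, beside 27.6% and 27.9% of protein-coding genes so counted. Without the Per1KO day 5 library 41 were called higher, and without the Per2KO day 5 library 40. Voltage-gated calcium channel subunits had 7 of 11 called higher and 0 lower, voltage-gated potassium channels 7 of 14 and 1, and ligand-gated and acid-sensing channels 16 of 26 and 2. Without the Per1KO or the Per2KO day 5 library, ligand-gated channels were 10 higher in each case and 1 and 2 lower, and voltage-gated potassium channels 4 and 1 each. Of 27 chloride channels, 8 were called higher and 9 lower. Those calls were 2 and 7 without the Per1KO and 4 and 7 without the Per2KO day 5 library, and 4 of the 27 passed through 1 day only.

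**Figure D4:**
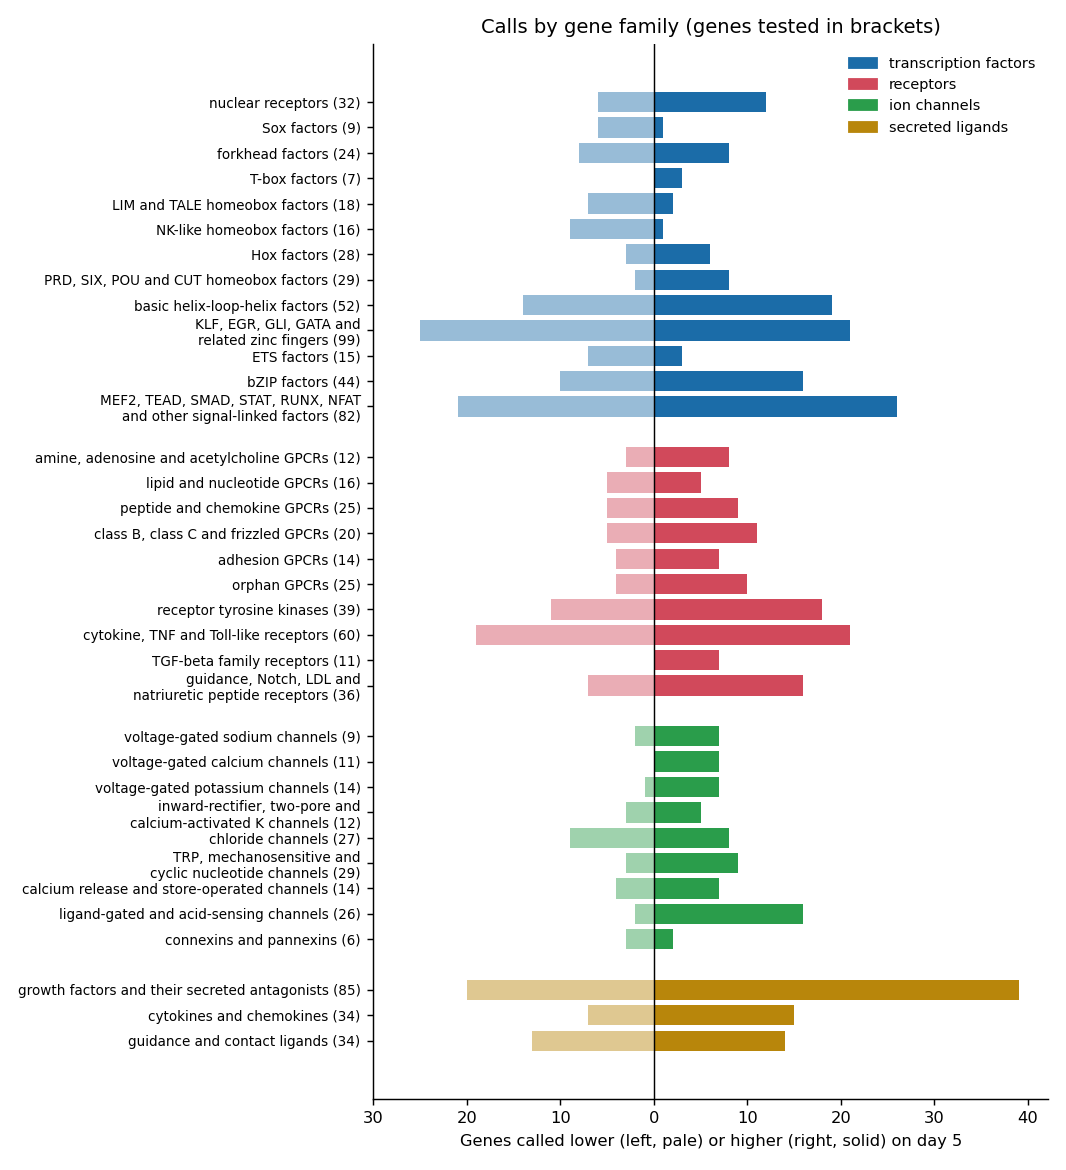
Number of genes called lower (left, pale) and higher (right, solid) on day 5 in each family of transcription factors, receptors, ion channels and secreted ligands, with the number tested in brackets. Voltage-gated calcium channel, T-box and TGF-beta receptor families have no lower calls, and NK-like homeobox and Sox factors have 1 higher call each.

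Channels of the muscle membrane rose by different amounts. Scn4a, the sodium channel of the skeletal muscle action potential, went from 0.227 and 0.0607 CPM to 36.7 and 23.7, a ratio of 212 (exact 95% counting interval 126 to 388). Of the acetylcholine receptor subunits, Chrng, the fetal gamma subunit, rose from 10.9 and 10.7 CPM to 378 and 307 (log2 fold change 4.97 ± 0.13). The alpha subunit Chrna1 rose from 872 and 845 CPM to 1726 and 1584 (0.95 ± 0.10), and the beta subunit Chrnb1 from 134 and 117 to 331 and 293 (1.31 ± 0.10). The delta subunit Chrnd was at 154 and 217 CPM on day 0 and 350 and 289 on day 5 (0.80 ± 0.19), and its call was lost without the Per1KO day 5 library (adjusted p = 0.0713). The receptor thus had 1 subunit that rose over 20-fold and 3 that changed by less than 3-fold. Chrna1, Chrnb1, Chrnd, Ryr3 and Clcn1 were named after their values were seen.

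Of 14 tested calcium release and store-operated channels, 7 were called higher (50%) and 4 lower (28.6%), beside 29.3% and 27.7% of protein-coding genes. Ryr1, the release channel of skeletal muscle, rose from 20.3 and 9.93 CPM to 679 and 617 (log2 fold change 5.50 ± 0.25), and its relative Ryr3, found in developing muscle, from 1.45 and 1.27 to 25.6 and 23.3. Mcub, an inhibitory subunit of the mitochondrial calcium uniporter, fell from 37.6 and 41.5 CPM to 10.5 and 12.1. Cacng6, an auxiliary calcium channel subunit, had 1 and 0 counts on day 0 and 84 and 78 on day 5.

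Potassium and chloride channels changed in both directions. Kcnn3, a small-conductance calcium-activated channel, rose from 1.47 and 1.58 CPM to 43.7 and 36.1. Kcnn4, the intermediate-conductance channel of proliferating cells, fell from 60.9 and 63.9 CPM to 13.6 and 13.9 (log2 fold change -2.18 ± 0.12). Kcna3, a voltage-gated channel best known from lymphocytes, had 42 and 30 counts on day 0 and 4 and 2 on day 5. Kcnk13, a 2-pore channel, had no count on day 0 and 36 and 34 counts on day 5, at least 13.9-fold higher. Best1, a calcium-activated chloride channel, rose from 0.413 and 0.485 CPM to 21.2 and 17.5 (log2 fold change 5.41 ± 0.23). Cftr, the epithelial chloride channel, had 60 and 112 counts on day 0 and 5 and 0 on day 5. Clcn1, the chloride channel that sets the excitability of adult muscle, was at 0.496 and 0.303 CPM on day 0 and 0.464 and 0.273 on day 5 and was not called (log2 fold change -0.12 ± 0.41, adjusted p = 0.825). A share of 8.198% of its exon bases lies opposite Fam131b, which was at 19.1 CPM in Per1KO on day 0, so even these low counts are uncertain.

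**Figure D5:**
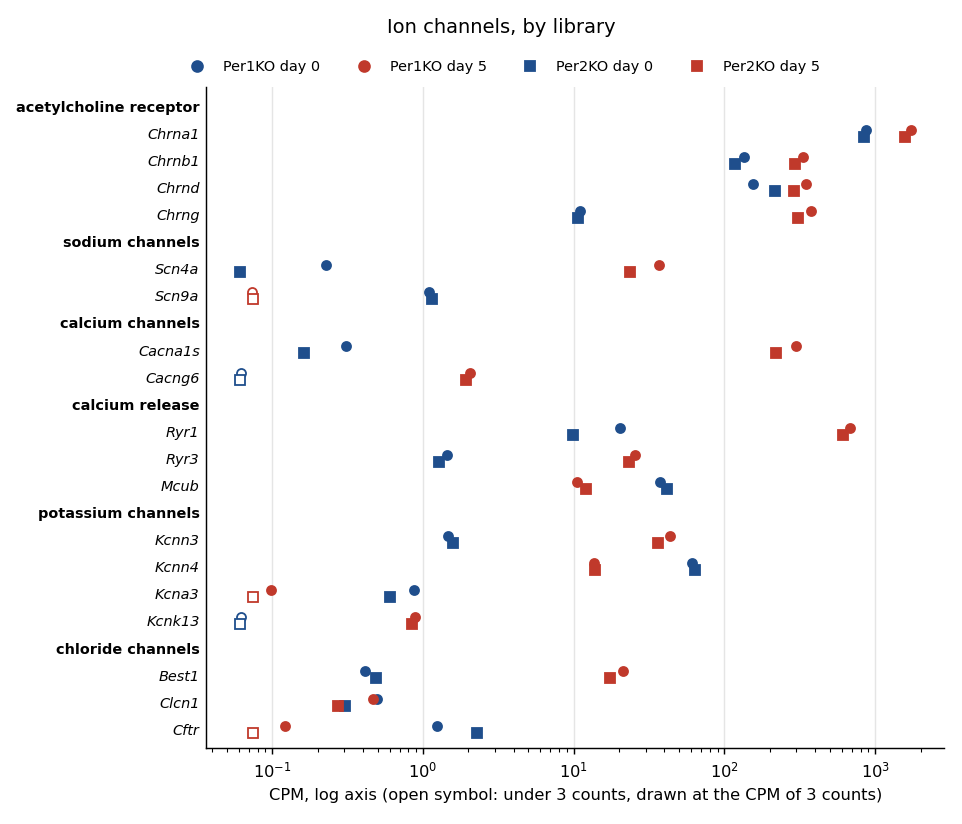
CPM in each library (log x axis; circles Per1KO, squares Per2KO, blue day 0, red day 5) of acetylcholine receptor subunits and of sodium, calcium, calcium release, potassium and chloride channels; open symbols hold under 3 counts. Scn4a, Cacna1s, Ryr1 and Chrng lie far to the right on day 5, while Clcn1 has the 2 days side by side.

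Channels that are not textbook muscle channels were among the largest changes of scarce genes. Gja5, a gap junction connexin of atria and arteries, had 3 and 0 counts on day 0 and 192 and 148 on day 5. Trpv1, the capsaicin receptor, had 0 and 1 counts on day 0 and 45 and 52 on day 5, a ratio of 117 (20.5 to 4658). Chrna10, a nicotinic receptor subunit of the inner ear, had no count on day 0 and 35 and 30 on day 5. However, 39.0% of its exon bases lie opposite Art1, a muscle ADP-ribosyltransferase gene that went from 0.186 and 0.0607 CPM to 80.0 and 59.1, so reads of Art1 could be counted to it. On the falling side, Scn9a, the sodium channel of sensory neurons, had 53 and 57 counts on day 0 and 2 and 2 on day 5, and the cold receptor Trpm8 had 29 and 28 against 3 and 2. Their ratios were 0.0438 (0.0117 to 0.115) and 0.106 (0.0330 to 0.261). Gabra2, a GABA receptor subunit, had 44 and 79 counts on day 0 and 6 and 15 on day 5, a call that was lost without the Per1KO day 5 library (adjusted p = 0.0545).

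Of 287 secreted ligands listed, 153 were tested, 22 of them through 1 day only, and 68 (44.4%) were called higher and 40 (26.1%) lower, beside 29.3% and 27.7% of protein-coding genes, so that the lower share was close to that of all coding genes. The list goes by symbol and also holds secreted antagonists, contact ligands such as membrane semaphorins, and the intracellular Fgf13. The median log2 fold change over the tested ligands was 0.41, against -0.01 over all genes. Among the 131 counted on both days, 51 (38.9%) were called higher and 38 (29.0%) lower, beside 27.6% and 27.9% of protein-coding genes so counted. Without the Per1KO day 5 library 40 were called higher and 26 lower, and without the Per2KO day 5 library 36 and 26.

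Growth factors led both directions. Igf1, the insulin-like growth factor that promotes muscle growth (chromosome 10, 87858265 to 87937042), had 2 and 1 counts on day 0 and 268 and 401 on day 5, that is 6.55 and 9.94 CPM and a ratio of 268 (exact 95% counting interval 91.4 to 1305; adjusted p = 2.69e-05). Bmp4, a bone morphogenetic protein, rose from 0.227 and 0.364 CPM to 8.50 and 12.7 (log2 fold change 5.16 ± 0.25). Its atypical relative Bmp3 had no count on day 0 and 90 and 103 counts on day 5, at least 35.4-fold higher, and Gdf5, a ligand of joint development, had 3 and 0 against 96 and 63. Fgf9, a fibroblast growth factor, had 0 and 3 counts on day 0 and 59 and 36 on day 5. Fgf13, an intracellular relative of the fibroblast growth factors, had no count on day 0 and 60 and 26 on day 5, at least 10.6-fold higher, but DESeq2 did not call it (adjusted p = 0.114). Areg, the EGF receptor ligand amphiregulin, fell from 14.4 and 15.8 CPM to 1.22 and 1.29 (log2 fold change -3.59 ± 0.19). Angpt2, a ligand of the TEK receptor, fell from 2.67 and 2.57 CPM to 0.586 and 0.545.

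Cytokines and guidance cues also moved in both directions. Il15, a cytokine made by muscle, rose from 0.289 and 0.344 CPM to 15.2 and 13.9 (log2 fold change 5.51 ± 0.24, adjusted p = 1.69e-05), and Cxcl1, a neutrophil attractant, fell from 8.25 and 9.53 to 2.44 and 2.63. Sema3d, a secreted semaphorin, rose from 38.2 and 27.6 CPM to 306 and 272. The membrane semaphorins Sema6b and Sema4a fell, Sema6b from 3.60 and 2.103 CPM to 0.293 and 0.347 and Sema4a from 1.84 and 1.33 to 0.147 and 0.248. Tnf had 18 and 19 counts on day 0 and 2 and 5 on day 5, a call that was lost with DESeq2 (adjusted p = 0.254) and without the Per1KO day 5 library (adjusted p = 0.113). Mst1, a hepatocyte growth factor-like ligand, had 13 and 19, then 2 and 1, and DESeq2 did not call it either (adjusted p = 0.158).

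The size of the change differed between the populations in part of the genes. For 1191 of the 15719 genes the 2 log2 differences were at least 1 apart, in 620 of them towards a larger rise or smaller fall in Per1KO. Cth, the enzyme that makes cysteine from cystathionine and was named after its values were seen, fell from 20.4 CPM to 1.51 in Per1KO and from 133 to 1.49 in Per2KO, so the day 5 levels were alike and the day 0 levels were not. Its call (adjusted p = 0.00464) was lost without the Per1KO or the Per2KO day 5 library (adjusted p = 0.331 and 0.330), and when no filter on low counts was used (adjusted p = 0.267). Celsr1, an adhesion receptor of planar cell polarity, had 29 and 82 counts on day 0 and 5 and 2 on day 5. With 1 library each, genotype and the spread between cultures cannot be told apart.

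The letters CAGCTG, a form of the E-box that myogenic helix-loop-helix factors are known to bind, were counted in promoters, a description with no test. RefSeq promoters (build GRCm38.p6) were matched to 10027 of the 12815 tested protein-coding genes, and the 250 bases before the start were searched on both strands, which for this palindrome are the same letters. CAGCTG was present in 11.97% of all matched promoters, in 19.6% of the 1205 whose genes rose at least 2-fold in both populations and in 10.9% of the 957 whose genes fell so. TTTGAA, a form of the cell cycle homology region, searched with its reverse complement, was present in 10.4% of all, 11.2% of the risen and 14.8% of the fallen, and CCAAT, searched likewise, in 36.8%, 34.4% and 42.4%. Of the matched RefSeq starts, 88.1% lay within 500 bases of the gene start in GENCODE, and among those CAGCTG was present in 11.8% of all 8833, 19.9% of the 1023 risen and 11.1% of the 858 fallen. No motif contains another, but matches of different motifs can share end letters. A match is a run of letters and not a bound site. Printed 5′ to 3′ with CAGCTG in capitals are the 250 bases before the RefSeq start of the acetylcholine receptor alpha subunit (Chrna1, chr2:73580339-73580588, minus strand), of the myosin-binding protein gene Mybph (chr1:134193198-134193447, plus strand), of a semaphorin receptor (Plxnb3, chrX:73756853-73757102, plus strand) and, as a gene that fell with the same letters present, of amphiregulin (Areg, chr5:91139349-91139598, plus strand). They were chosen after their values were seen, from genes whose RefSeq and GENCODE starts coincide or, for Plxnb3, lie 13 bases apart. Chrna1 rose by less than 2-fold in both populations and is not among the 1205 risen genes. The letters begin 92 and 44 bases before the start in Chrna1, 79 in Mybph, 152 in Plxnb3 and 112 in Areg.
Chrna1: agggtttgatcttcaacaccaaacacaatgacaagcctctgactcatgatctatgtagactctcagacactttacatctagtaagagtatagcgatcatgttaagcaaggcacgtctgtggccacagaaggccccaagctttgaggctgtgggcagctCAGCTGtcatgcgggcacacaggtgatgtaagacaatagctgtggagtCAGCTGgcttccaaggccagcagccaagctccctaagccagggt
Mybph: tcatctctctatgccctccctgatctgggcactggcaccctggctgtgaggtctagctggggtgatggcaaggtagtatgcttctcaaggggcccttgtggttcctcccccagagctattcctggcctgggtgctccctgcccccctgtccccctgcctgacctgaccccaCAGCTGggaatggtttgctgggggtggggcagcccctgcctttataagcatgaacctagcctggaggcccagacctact
Plxnb3: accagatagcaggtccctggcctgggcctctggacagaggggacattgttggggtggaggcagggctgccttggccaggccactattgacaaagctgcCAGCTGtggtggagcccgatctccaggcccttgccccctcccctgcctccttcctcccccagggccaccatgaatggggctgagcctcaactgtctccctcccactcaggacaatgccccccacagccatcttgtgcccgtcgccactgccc
Areg: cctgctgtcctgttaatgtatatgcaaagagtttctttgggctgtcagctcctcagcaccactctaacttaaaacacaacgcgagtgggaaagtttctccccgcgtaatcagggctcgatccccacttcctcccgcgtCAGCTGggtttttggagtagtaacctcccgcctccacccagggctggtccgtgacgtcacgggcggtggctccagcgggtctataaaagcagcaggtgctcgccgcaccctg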

How the data were processed

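RNA was measured by single-read sequencing of poly(A)-selected libraries, per the labels' protocols. The authors deposited 1 table of unnormalized read counts by Ensembl gene identifier, used here without change. Per the submitters' processing notes, HISAT2 2.1.0, CASAVA 1.8 and build mm10 were used. The counting program, its annotation and its use of strand are not given in the sources used here, so reads shared by overlapping genes on opposite strands could be counted to either. Columns were matched to samples by title. Positions, types and 31-mer sharing came from GENCODE M21 (GRCm38, the same build as mm10), in which 47310 of 47729 genes were found.

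Library sizes were scaled by TMM, and genes that reached 10 counts in 2 or more of the 4 libraries entered the test, edgeR 4.0.16 under R 4.3.3, with limma 3.58.1 beneath it and robust quasi-likelihood with genotype and day as terms and 1 residual degree of freedom. Pairing is by cell population. Standard errors derive from the fold change and its F statistic. The procedure was tested on simulated counts with 1 dispersion for all genes and changes set only in genes at 1 CPM or more. It called 50% of 1.5-fold and 94% of 2-fold changes, with 14 false calls among 15460 genes. The simulation does not cover recovery of scarcer genes. For genes with few counts on a day, the ratio of summed scaled counts is given with an exact conditional 95% interval, and against 2 counts of 0 the smaller population's fold over 3 counts per library.

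Named genes were protein-coding, called, moved the same way in both populations, shared under 10% of their 31-mers, and ranked by the smaller population's log2 difference with counts under 3 raised to 3. The 5 largest rises and falls of all, the 4 of each class under a mean of 10 CPM, the 3 of each class under 1 CPM and the largest of each family came to 103 genes with Per1, Per2, Myod1, Myog and Ckm, of which 99 are described and the others are not reported here. Others are marked as named after their values were seen. The classes are families of symbols. Members and lists were chosen with earlier results of these data known. Alternatives were other scalings and filters, DESeq2 1.42.0, no block, added day 3 libraries, protein-coding genes only, and each library left out.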

Additional observations from a re-analysis of the deposited data

Results flagged for a closer look

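In 2 protein-coding genes that averaged 1 CPM or more and shared little sequence with others, the populations moved at least 2-fold in opposite directions from day 0 to day 5. The difference was not tested, since each population has 1 library per day. Angptl6, a secreted angiopoietin-like protein, had 29 counts on day 0 and 65 on day 5 in Per1KO (log2 difference 1.41), and 216 and 47 in Per2KO (-1.91). Its day 5 levels were 1.59 and 1.16 CPM, and the populations stood further apart on day 0, at 0.600 and 4.37 CPM. Oasl2, an interferon-inducible gene of the oligoadenylate synthetase family, had 82 and 31 counts in Per1KO (-1.16) and 50 and 91 in Per2KO (1.16). Neither gene was called for day (edgeR, adjusted p = 0.677 and 0.934).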

How the results depend on the processing

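No gene called both in the main test and under any of the 12 other settings that refitted the table changed its direction. Counts of genes under 1 CPM depended on the setting: 116 were called higher and 68 lower with a 1 CPM filter, 300 and 89 with DESeq2, 391 and 199 when protein-coding genes alone were fitted, and 222 and 150 among genes counted on both days, an alternative chosen after seeing the data. Leaving out 1 library used no block and assumed the lone library of a day to vary like the others, with fewer genes tested (15063 to 15232). Without a day 5 library the residual spread came from the day 0 pair, and without a day 0 library from the day 5 pair. On the second principal component the day 0 libraries stood at -29.4 and 29.3, and the day 5 libraries at -2.40 and 2.54. Numbers of calls in these fits also follow that difference in spread. These fits gave 2385 to 4959 genes called higher and 2289 to 4941 lower, 117 to 648 genes under 1 CPM higher, 183 to 207 genes under 1 CPM lower, 40 to 75 ion channels higher, 19 to 27 ion channels lower, 74 to 120 receptors higher, 40 to 76 receptors lower, 36 to 73 secreted ligands higher, 26 to 44 secreted ligands lower, 84 to 150 transcription factors higher and 57 to 148 transcription factors lower. For the 121 genes named in the text or by the rule, calls were lost in 10 with DESeq2 and in 8 and 6 without the Per1KO and the Per2KO day 5 library, where 29 genes each were no longer tested. Fits without the block, or with day 3 libraries added, lost none of these calls; without the block 4261 genes were called higher and 4261 lower. The log2 fold change of Clcn1, which was not called, changed sign without the Per1KO day 0 library (0.27) and without the Per2KO day 5 library (0.24), with a range of -0.52 to 0.27 when each library was left out. Depth limits the scarce genes: 35.3% of those under 1 CPM were called, against 63.9% of those at 100 CPM or more.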

Other observations

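Membrane carriers, a list added after earlier results were seen, held 202 tested solute carriers. Of these, 70 (34.7%) were called higher and 55 (27.2%) lower, beside 29.3% and 27.7% of protein-coding genes, and 16 of the 202 passed the filter through 1 day only. Their median log2 fold change was 0.08. The genes named here were chosen after their values were seen. Slc2a1, the basal glucose transporter, fell from 255 and 245 CPM to 69.1 and 68.4 (log2 fold change -1.86 ± 0.10), while Slc2a6, a lysosomal hexose transporter, rose from 2.32 and 1.38 to 63.9 and 57.5. The insulin-responsive Slc2a4 was scarce and rose from 0.207 and 0.182 CPM to 2.39 and 1.26. Of 33 amino acid carriers, 12 were called higher and 12 lower. Slc6a19, the neutral amino acid carrier of gut and kidney, had 0 and 3 counts on day 0 and 347 and 284 on day 5. The cystine carrier Slc7a11 fell from 18.8 and 49.3 CPM to 1.32 and 1.78, with day 0 levels apart between the populations in the same order as those of Cth. That call was lost without the Per1KO or the Per2KO day 5 library (adjusted p = 0.0718 and 0.0659).

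Long non-coding RNAs included strong changes. Of 307 tested lincRNAs, 62 of which passed the filter through 1 day only, 117 (38.1%) were called higher and 51 (16.6%) lower, beside 26.9% and 26.5% of all genes. Among the 245 counted on both days, 78 (31.8%) were higher and 38 (15.5%) lower, beside 25.2% and 26.7% of all genes so counted. Gm14635 rose from 0.579 and 0.0607 CPM to 43.1 and 32.6, and Mirt1 fell from 3.35 and 2.73 CPM to 0.293 and 0.248. The antisense transcript 2310043M15Rik had 1 and 2 counts on day 0 and 837 and 540 on day 5, and 28.04% of its exon bases lie opposite Dop1b, which was at 17.3 CPM in Per1KO on day 0. Processed pseudogenes, whose reads can be shared with their parent genes, had 80 of 1556 called higher (5.14%) and 415 lower (26.7%), so that only the higher share lay away from that of all genes.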
